A study of Homo sapiens with 6 samples.

Results

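CXCR4, CCR10 and CXCR5 are chemokine receptor genes that guide B-lineage cells to bone marrow, mucosa and lymphoid follicles. They were taken by symbol from the 14884 genes measured, 1 probe set each, so that 3 of 14884 genes are described here. They had been picked because earlier results of these same arrays showed all of them higher with ATRA. Their values in that comparison are therefore given as a description, with no test. The 6 arrays hold RNA of MM.1S, an established human multiple myeloma cell line and thus 1 clonal model of a plasma cell cancer. All 6 samples, controls included, first had a 1 h pulse of Cfz, the usual abbreviation of carfilzomib, which blocks the proteasome. For the next 12 h, 3 samples received the solvent DMSO and 3 received 10 µM ATRA (all-trans retinoic acid, which activates the retinoic acid receptors). Cells without Cfz were not analysed here, so each value is that of ATRA on top of Cfz. Whether replicate arrays come from separate cultures is not given in the labels. The p-values therefore cover only the spread between these samples, which may be technical. An array of bulk RNA cannot tell fewer cells with a transcript from less transcript per cell.

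Chemokine receptors are seven-pass membrane proteins that couple to inhibitory G proteins and steer cells up gradients of small secreted chemokines. CXCR4 binds CXCL12 from bone marrow stroma and holds plasma cells and myeloma cells in the marrow. CCR10 binds CCL27, made in skin, and CCL28, made by mucosal epithelia, and draws IgA-secreting plasma cells to mucosal surfaces. CXCR5 binds CXCL13 and brings B cells and follicular helper T cells into follicles, and it is normally switched off as B cells become plasma cells. In lymphocytes of the gut, retinoic acid is known for inducing a different receptor, CCR9, together with a mucosal integrin.

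The 3 genes lie on 3 chromosomes of the assembly GRCh38.p14. CXCR4 covers chr2:136114349-136118149, CCR10 chr17:42678889-42681843 and CXCR5 chr11:118883892-118897787. RefSeq sequences before a start site were matched for 2 of the 3, CXCR4 and CXCR5, and CCR10 is named only. Both are shown because these 2 genes were higher on the same arrays. The likeness of their upstream sequences was not measured, and which start sites these cells use is not known here. Each line gives the 250 bases before a start site, 5′ to 3′ on the gene's own strand. Capitals mark every match to 1 of the motifs searched.
CXCR4, chr2:136118150-136118399, minus strand: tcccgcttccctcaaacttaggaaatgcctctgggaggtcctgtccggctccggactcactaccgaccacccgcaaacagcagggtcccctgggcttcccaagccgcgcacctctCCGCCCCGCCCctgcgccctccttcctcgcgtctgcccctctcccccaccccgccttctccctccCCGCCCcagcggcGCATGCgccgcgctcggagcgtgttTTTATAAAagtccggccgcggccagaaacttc
CXCR5, chr11:118893142-118893391, plus strand: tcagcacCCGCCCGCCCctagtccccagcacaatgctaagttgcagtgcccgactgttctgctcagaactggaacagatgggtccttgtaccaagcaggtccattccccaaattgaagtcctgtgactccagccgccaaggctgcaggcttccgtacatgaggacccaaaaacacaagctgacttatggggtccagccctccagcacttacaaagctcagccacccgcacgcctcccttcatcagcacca

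The CXCR4 window ends at the outermost start site of the gene, while the CXCR5 start site lies 9500 bases inside the annotated gene. The motifs were searched on both strands and, where they overlap, each match was kept. The CXCR4 window holds TATAAA from 30 to 25 bases before the start site on the gene's strand, and again on the other strand, overlapping it. It also holds GCATGC, the palindromic core of the sequence that the factor NRF1 binds, from 57 to 52 bases before the start site, and 3 copies of GGGCGG on the other strand. The CXCR5 window holds 2 overlapping copies of GGGCGG on the other strand and no match to TATAAA or GCATGC. Of all 35116 windows of the same length in the table, 10.7% hold TATAAA, 6.21% GCATGC and 42.6% GGGCGG. The CXCR4 window is 68% G or C with 24 CG dinucleotides and the CXCR5 window 57.2% with 7, against medians of 58% and 11 over all windows. Retinoic acid receptors bind pairs of a short half-site. It was searched for as AGGTCA (held by 12.1% of all windows), as AGTTCA (by 8.8%), as GGGTCA (by 12.1%) and as GGTTCA (by 7.16%). None of these 4 occurs in either window shown, and 33.8% of all windows hold at least 1 of them. The window of the CXCR4 start site 280 bases into the gene, holds AGTTCA on the other strand and GGGTCA on the gene's strand. That of the start site 1914 bases into it holds no half-site. No window of either gene holds 2 half-sites repeated with 1, 2 or 5 bases between, an arrangement found in 0.0968%, 0.0313% and 0.074% of all windows, nor CACGTG, found in 6.34%.

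CXCR4, the marrow retention receptor, had the largest difference of the 3. Its intensity was 397, 354 and 443 on the 3 DMSO arrays. With ATRA it was 1370, 1345 and 1233. Every ATRA array was thus far above every DMSO array, the lowest ATRA value being 2.78 times the highest DMSO value. The group means were 398 ± 44.7 with DMSO and 1316 ± 73.1 with ATRA (SD, n = 3 arrays each), a 3.32-fold higher level, or 1.73 on the log2 scale (SE 0.11).

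CCR10, the receptor of skin and mucosal chemokines, was above the median of the probe sets on every array, but below their upper quartile on DMSO replicates 1 and 2. Its intensity was 23.5, 25.4 and 32.2 with DMSO. With ATRA it was 62.0, 56.0 and 52.5. The groups did not overlap, although DMSO replicate 3 stood above the other DMSO arrays. The means were 27.0 ± 4.55 and 56.8 ± 4.81 (SD, n = 3), 2.12-fold higher with ATRA and 1.08 on the log2 scale (SE 0.14). The probe set carries the Entrez ID of CCR10 itself, a symbol once also used for the atypical receptors ACKR2 and ACKR4.

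CXCR5, the follicle-homing receptor, had the smallest difference of the 3. Its intensity was 20.7, 21.1 and 21.3 with DMSO, almost the same on each array. With ATRA it was 31.1, 35.8 and 29.6, and again every ATRA array lay above every DMSO array. The means were 21.0 ± 0.291 and 32.1 ± 3.21 (SD, n = 3), 1.52-fold higher with ATRA and 0.61 on the log2 scale (SE 0.10).

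**Figure D1:**
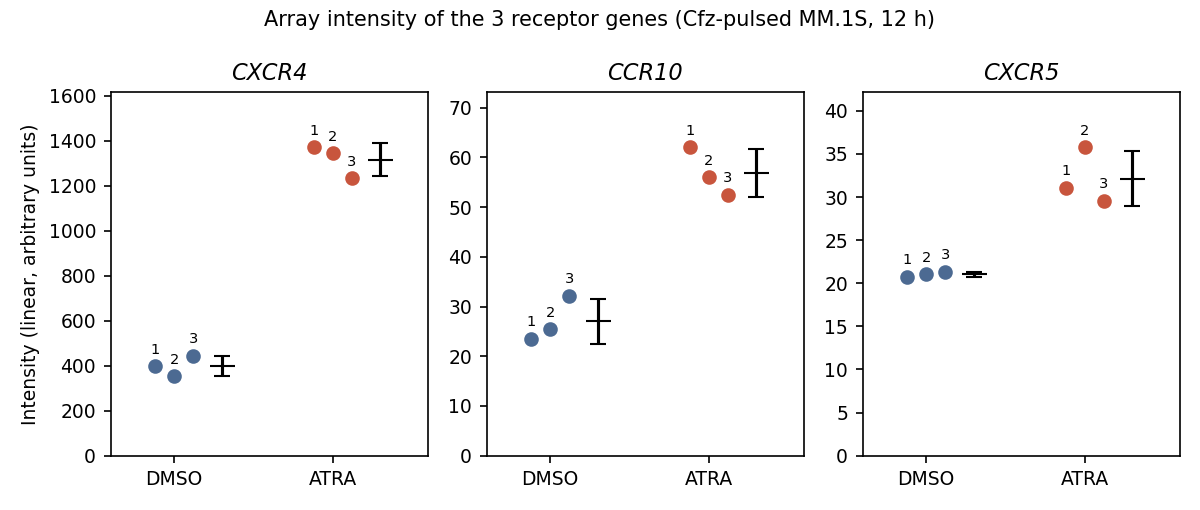
Linear array intensity of CXCR4, CCR10 and CXCR5, each on its own axis from 0, for the 3 DMSO and 3 ATRA arrays (points, numbered by replicate) with the group mean and SD beside them. In each panel all ATRA points lie above all DMSO points, with group means of 1316 against 398 for CXCR4, 56.8 against 27.0 for CCR10 and 32.1 against 21.0 for CXCR5.

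Among the log2 differences of all 14884 genes, counted from the highest, CXCR4 stood at place 25, CCR10 at 68 and CXCR5 at 264. The 3 ATRA values lay above the 3 DMSO values for all 3 receptors and for 9.86% of all genes tested. Nothing is read from this count, since the receptors were chosen on it. The arrays agreed unequally well for the 3 genes. On the log2 scale the SD within groups was 0.13 for CXCR4, against a median of 0.063 for the 477 genes within 0.5 of its level. For CCR10 it was 0.19, against 0.18 for 1608 genes, and for CXCR5 0.10, against 0.20 for 1859 genes. Leaving out each array in turn kept the log2 difference between 1.65 and 1.81 for CXCR4, 0.99 and 1.21 for CCR10, and 0.53 and 0.66 for CXCR5.

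Per array, 25% of the 53617 probe sets were brighter than 30.9 to 31.4, and the median was 9.40 to 9.76. CXCR4 was far above both on every array. CCR10 crossed the upper quartile between the groups, with DMSO replicates 1 and 2 below it, and CXCR5 lay below it on every DMSO array and on ATRA replicates 1 and 3. Markers of other cell types serve as a guide to the brightness of genes little used here. Of 42 measured markers of mature B, T, NK, myeloid, stromal, endothelial and epithelial cells, 35 had a mean log2 intensity under 5, and the median of all 42 was 3.48. The 7 brighter ones were CD68, CD7, CR2, FCRLA, KRT18, S100A9 and TRAT1, up to 9.32 for CD68. On that scale CXCR5 was at 4.39, CCR10 at 4.74 and CXCR4 at 8.63 with DMSO, all above the median of the markers. With DMSO, CCR10 and CXCR5 were thus under 5, like most markers, and the sizes of their folds are uncertain. CD68 was brighter than CXCR4 with DMSO too, so the brighter markers do not set CCR10 and CXCR5 apart from CXCR4. Brightness depends on the probes, so levels of different genes are not ranked.

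Other receptors of the family mostly did not pass the test. CXCR4, CCR10 and CXCR5 were left out of this list and had been picked as higher, so its counts form no contrast with them. Of 25 other chemokine and chemoattractant receptors listed, 22 were measured, of which 0 rose, 1 fell and 21 did not pass an adjusted p of 0.05 (limma, Benjamini-Hochberg over all genes). That is 4.55% called, near the 3.8% of all genes (1.73% higher and 2.07% lower). At an unadjusted p under 0.05, 3 receptors were higher and 1 lower, and an ordinary two-sample test with the same adjustment called 0. Over all 14884 genes 2668 had an unadjusted p under 0.05, and the ordinary test called 405 (170 higher and 235 lower). These are also the background for the same counts in the lists below. The median log2 difference of the 22 was 0.002, against -0.01 for all genes. Of the 22, 18 had a mean log2 intensity under 5.

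CXCR3, which binds interferon-induced chemokines and directs cells to inflamed tissue, was the 1 receptor that fell. Its intensity was 59.9, 92.4 and 77.8 with DMSO and 35.1, 36.6 and 42.8 with ATRA, so the groups did not overlap. It was 1.99-fold lower, or -0.99 on the log2 scale (SE 0.17, limma adjusted p = 0.0238). The call held without DMSO replicate 1 (adjusted p = 0.0206). It was lost without DMSO replicate 2 (0.0592) or 3 (0.0925) and without ATRA replicate 1 (0.0901), 2 (0.0820) or 3 (0.0579).

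CCR9, the gut-homing receptor that retinoic acid is known to induce in lymphocytes, was at 7.51 ± 1.55 with ATRA and 7.88 ± 2.14 with DMSO (SD, n = 3), below the array median (log2 difference -0.06, limma adjusted p = 0.929). ACKR3, which also binds CXCL12 and scavenges it, was at 6.75 ± 0.995 and 8.33 ± 1.37 (-0.30, adjusted p = 0.374). No difference was detectable at these levels. The other 3 measured receptors with a mean log2 intensity of at least 5 are named with their values known. They were CCR1, an inflammatory chemokine receptor, at 434 ± 19.1 with ATRA and 490 ± 4.51 with DMSO (-0.17, adjusted p = 0.351), XCR1, the lymphotactin receptor of cross-presenting dendritic cells, at 180 ± 22.3 and 148 ± 14.2 (0.28, adjusted p = 0.304), and CX3CR1, the fractalkine receptor, at 82.9 ± 7.75 and 83.4 ± 13.8 (0.00, adjusted p = 0.998).

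**Figure D2:**
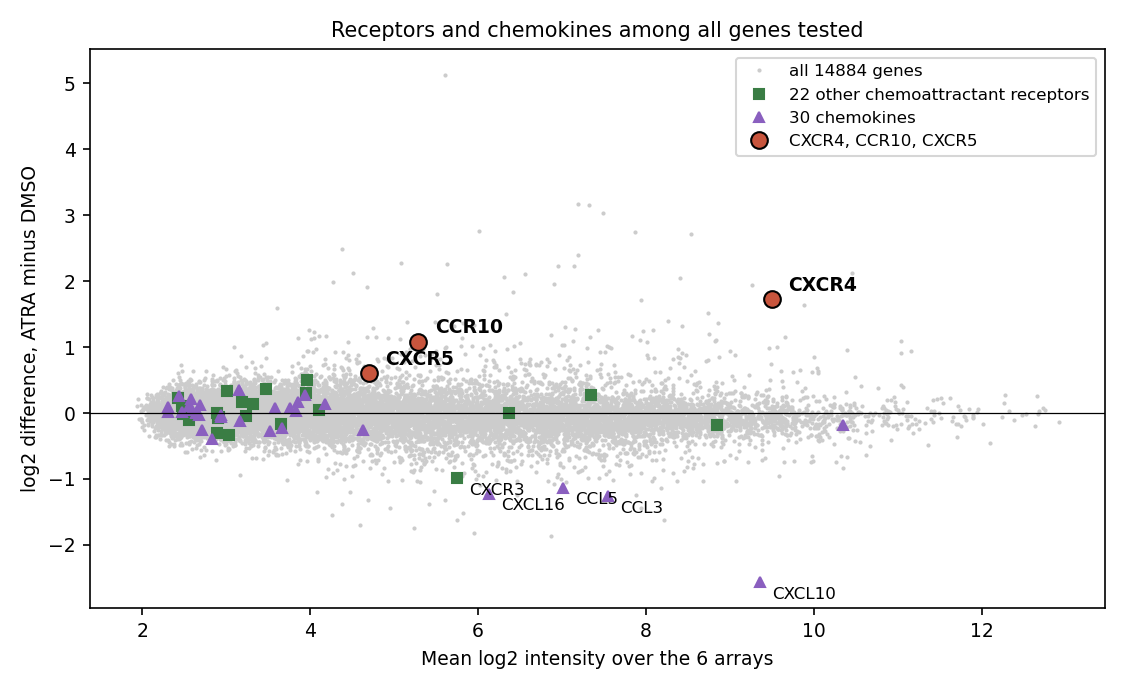
Log2 difference, ATRA minus DMSO, against mean log2 intensity over the 6 arrays for all 14884 genes (grey), with CXCR4, CCR10 and CXCR5 (circles), 22 other chemokine and chemoattractant receptors (squares) and 30 chemokines (triangles). The 3 receptors, picked as higher, lie above 0, at 1.73, 1.08 and 0.61. The labelled receptor CXCR3 and 4 chemokines lie below 0, and most other receptors and chemokines lie near it at a log2 intensity under 5.

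The ligands of the 3 receptors were mostly dim in these cells. CXCL12, the ligand of CXCR4, was at 7.57 ± 0.602 with ATRA and 7.76 ± 0.916 with DMSO (SD, n = 3). CCL28 and CCL27, the ligands of CCR10, were at 6.47 ± 0.753 against 5.54 ± 0.244 and at 15.5 ± 2.83 against 13.8 ± 2.52. CXCL13, the ligand of CXCR5, was at 5.59 ± 0.187 against 5.54 ± 0.380. None of these 4 passed limma's test (adjusted p 0.378 to 0.955). MIF, a cytokine that can also bind CXCR4, was bright at 1221 ± 22.5 against 1379 ± 85.7 (log2 difference -0.17, adjusted p = 0.379), a difference that passed in the trended and robust eBayes fit (adjusted p = 0.0358). A list of 31 chemokines had 30 measured genes. There 0 rose, 4 fell and 26 did not pass, 13.3% called against 3.8% of all genes. Unadjusted, 0 were higher and 6 lower at a p under 0.05, and the ordinary two-sample test called 0 higher and 2 lower. The list's median was 0.008. This list, like the others here, was chosen with earlier results of these data known, so its share is not read as a result.

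The chemokines that fell were CXCL10 (-2.57, adjusted p = 5.07e-05), which binds CXCR3, CCL3 (-1.26, 0.0138) and CCL5 (-1.13, 0.00238), which attract monocytes and T cells, and CXCL16 (-1.22, 0.0269), the ligand of CXCR6. CXCL10 and CCL5 kept their calls whichever array was left out. CCL3 lost its call without DMSO replicate 1 (0.0566), 2 (0.0520) or 3 (0.0609) or ATRA replicate 1 (0.0582). CXCL16 lost it without DMSO replicate 1 (0.0549) or 3 (0.0714) or ATRA replicate 1 (0.0921), 2 (0.0513) or 3 (0.0906).

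Homing also needs adhesion, and adhesion genes were listed in the same way. More of them were called lower than higher, as was so over all genes (308 lower and 257 higher). Of 44 listed genes 22 were measured, of which 1 rose, 3 fell and 18 did not pass, 18.2% called against 3.8% of all genes, with a median of -0.13. At an unadjusted p under 0.05, 1 was higher and 7 lower, and the ordinary two-sample test called 0. The groups did not overlap for 2 higher and 7 lower genes, where 9.86% and 14.8% of all genes did not. These shares are not read as a result, since this list too was chosen with earlier results known. None of the 18 integrin subunits listed, those of the mucosal integrin included, was among the genes measured, so they were not analysed here. ICAM1, the ligand of leukocyte integrins on endothelium and stroma, rose to 359 ± 32.7 from 233 ± 27.2 (0.63, limma adjusted p = 0.0401). CD58, the ligand of CD2, fell to 21.3 ± 1.53 from 36.1 ± 3.73 (-0.76, adjusted p = 0.0139). CD48, a ligand of the NK receptor CD244, fell to 194 ± 16.4 from 308 ± 20.8 (-0.67, adjusted p = 0.0178), and ALCAM, a cell adhesion molecule that binds CD6, to 18.9 ± 1.88 from 29.7 ± 3.67 (-0.65, adjusted p = 0.0377). ICAM1, CD48 and ALCAM lost their calls in each of the 6 fits that leave out 1 array (adjusted p up to 0.123, 0.0739 and 0.109). CD58 lost it without DMSO replicate 1 (0.0573) or 3 (0.0531) or ATRA replicate 1 (0.0582).

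Receptors and factors of tissue exit gave 1 call. Of 21 listed genes 16 were measured, 1 rose, 0 fell and 15 did not pass, 6.25% called against 3.8% of all genes (1.73% higher), with a median of 0.06. At an unadjusted p under 0.05, 4 were higher and 1 lower, and the ordinary two-sample test called 0. KLF2, a transcription factor that controls lymphocyte trafficking and plasma cell homing, rose to 932 ± 45.5 from 668 ± 36.6 (0.48, limma adjusted p = 0.0381). It lost the call in each of the 6 fits that leave out 1 array (adjusted p up to 0.126) and with arrays shifted to a common median (0.0503). The largest differences among the others, named with their values known, were those of GPR174, a lysophosphatidylserine receptor, at 37.0 ± 2.95 against 21.9 ± 6.09 (0.79, adjusted p = 0.0736), and S1PR2, a receptor of sphingosine 1-phosphate that keeps B cells in germinal centres, at 252 ± 31.0 against 173 ± 25.9 (0.54, adjusted p = 0.0958).

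Downstream of the receptors, 36 of 67 listed genes of G protein signalling, desensitisation and cell movement were measured. Of these 0 rose, 1 fell and 35 did not pass, 2.78% called against 3.8% of all genes, with a median of -0.01. At an unadjusted p under 0.05, 4 were higher and 5 lower, and the ordinary two-sample test called 1 higher and 0 lower. RGS1, which switches off G proteins coupled to chemokine receptors and so dampens the response to CXCL12, was the 1 that fell. Its intensity was 445, 381 and 468 with DMSO and 159, 224 and 207 with ATRA, with no overlap. It was 2.21-fold lower, or -1.14 on the log2 scale (SE 0.15, limma adjusted p = 0.00968), and its call was lost only without DMSO replicate 1 (0.0509) among the fits with 1 array left out. CXCR4 was thus higher and RGS1 lower on each of the same 3 arrays.

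Of 47 listed transcription factors and cofactors known to act on 1 or more of these receptor genes or on B-lineage identity, 31 were measured. There 1 rose, 2 fell and 28 did not pass, 9.68% called against 3.8% of all genes, with a median of -0.06. At an unadjusted p under 0.05, 5 were higher and 5 lower, and the ordinary two-sample test called 1 higher and 2 lower. Nothing is read from the share called, as this list was likewise chosen with earlier results known. XBP1, the transcription factor of the secretory programme, rose (0.54, limma adjusted p = 0.0175), and NFKB1 (-0.44, 0.0404), an NF-kappaB subunit, and KLF6 (-0.47, 0.0342), a stress-responsive factor, fell. All 3 lost their calls in each of the 6 fits that leave out 1 array (adjusted p up to 0.0758, 0.134 and 0.122), NFKB1 also with quantile normalization (0.0618) and cyclic loess normalization (0.0680), and KLF6 with cyclic loess (0.0601). BCL6, the germinal centre factor that works with CXCR5 in follicular cells, was at 6.87 ± 1.79 with ATRA and 9.96 ± 1.47 with DMSO (-0.56, adjusted p = 0.203). It was dim in both groups, below the array median on all 3 ATRA arrays and on DMSO replicate 3. On DMSO replicates 1 and 2 it was only slightly above it (10.8 on each, against medians of 9.61 and 9.40).

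**Figure D3:**
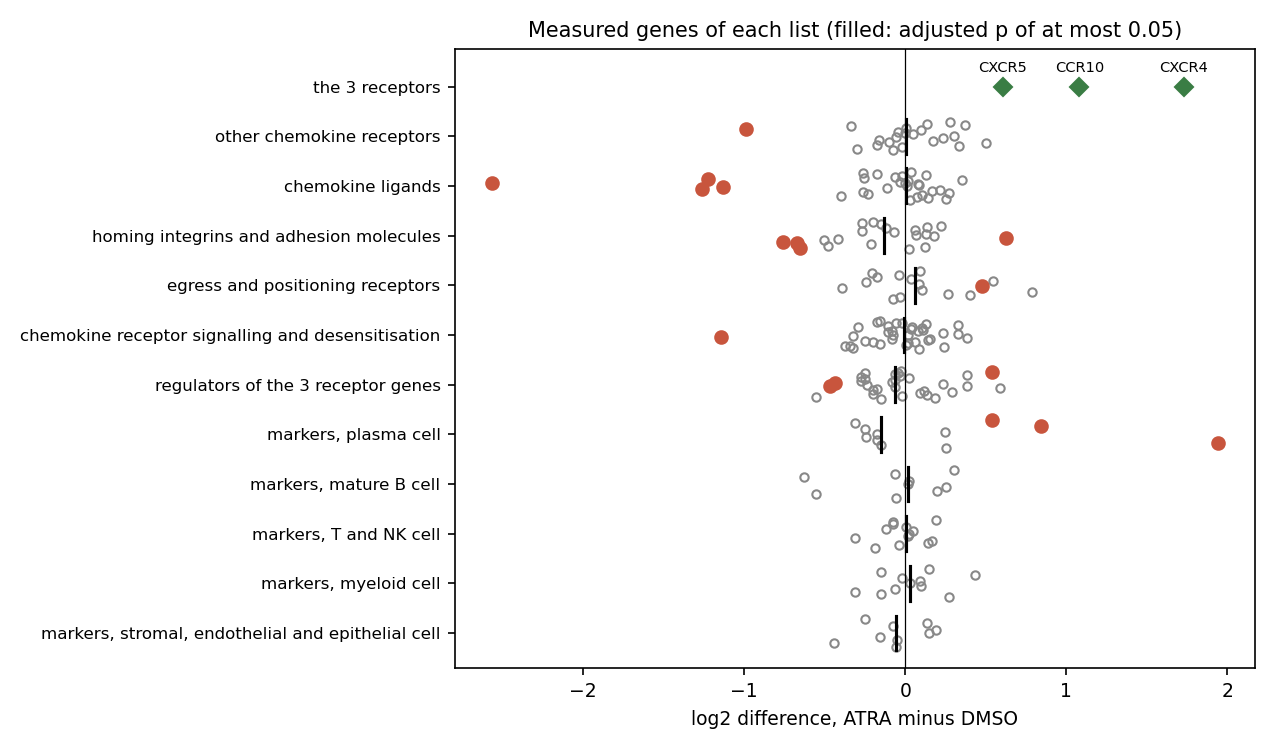
Log2 difference, ATRA minus DMSO, of the 3 receptors (diamonds, not tested) and of each measured gene of 11 lists (circles, filled where the limma adjusted p was at most 0.05), with a vertical bar at each list's median. The medians lie between -0.15 and 0.06. Of the 22 other receptors 0 rose and 1 fell, 4.55% called, near the 3.8% of all genes. That list leaves out the 3 receptors, which were picked as higher, so it forms no contrast with them.

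The genes whose 6 array values were most like each receptor's were found by the root mean square difference of log2 values, after each gene was centred on its own mean over the 6 arrays. This is a description over 6 arrays, in which the shared step between groups weighs most. Nearest to CXCR4 were ATP13A2, a lysosomal polyamine transporter (0.12), SULF2, which trims sulfate from heparan sulfate (0.13), and PLAAT4, a retinoid-induced phospholipase (0.15). Their log2 differences were 1.72, 1.63 and 1.84, beside 1.73 for CXCR4. Nearest to CCR10 were MPPED2, a metallophosphoesterase (0.12), TRAF5, an adaptor of TNF receptors (0.12), and SRI, a calcium-binding protein (0.12), with log2 differences of 1.03, 1.04 and 1.04. MPPED2 was dim, at 6.70, 7.88 and 8.29 with DMSO, below the median of each of these arrays. Nearest to CXCR5 were DDAH1, which breaks down asymmetric dimethylarginine (0.03), SNX11, a sorting nexin (0.04), and KLHL6, a ubiquitin ligase adaptor of B-lineage cells (0.04), with log2 differences of 0.57, 0.57 and 0.63. Between the receptors the value was 0.34 for CXCR4 and CCR10, 0.29 for CCR10 and CXCR5, and 0.57 for CXCR4 and CXCR5. These are not set against the values above, which were picked as the smallest among the protein-coding genes.

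**Figure D4:**
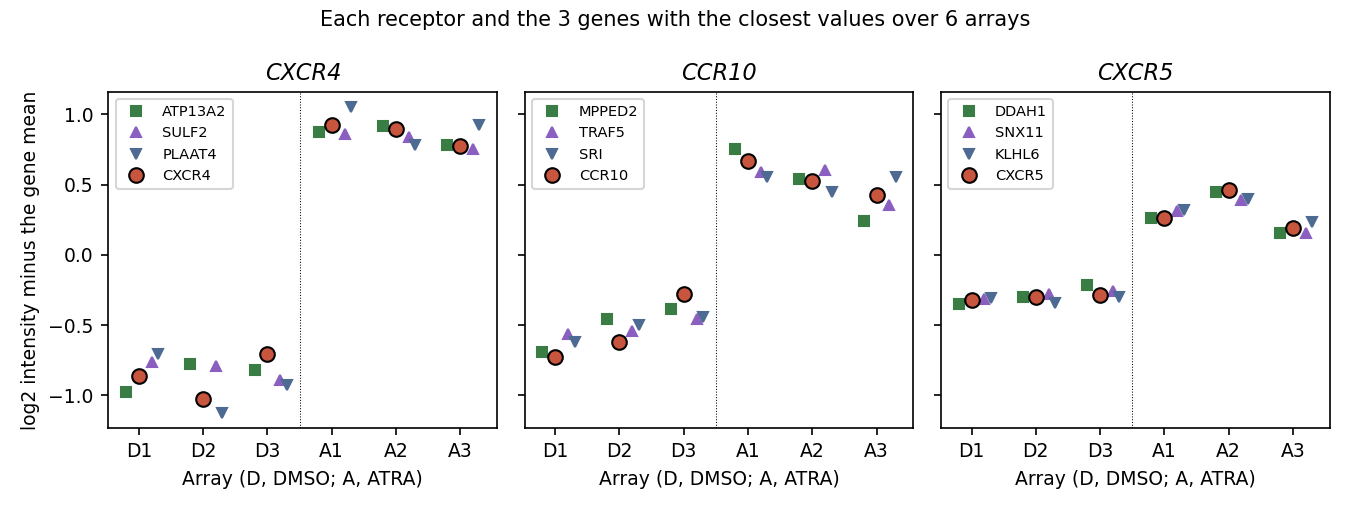
Log2 intensity minus each gene's mean over the 6 arrays for each receptor (circles) and the 3 genes with the closest values, on the 3 DMSO arrays (D1 to D3) and the 3 ATRA arrays (A1 to A3), offset sideways for sight. The DMSO points lie below 0 and the ATRA points above it in all panels, with the widest step for CXCR4 (1.73) and the narrowest for CXCR5 (0.61).

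Tested genes near the receptors in the genome were looked at after the receptors' values were known, taking the nearest 2 on each side. They lay from 688 bases (CNTNAP1, from CCR10) to 2383621 bases (SPOPL, from CXCR4) away. Genes that overlap a receptor gene or are unnamed here were left out. Of the 12 neighbours 1 passed the test, 8.33% where 3.8% of all genes did. MCM6, a subunit of the replicative helicase, 237906 bases from CXCR4, fell to 271 ± 11.3 from 479 ± 37.2 (SD, n = 3; log2 difference -0.82, limma adjusted p = 0.00653), opposite in sign to CXCR4, and kept its call whichever array was left out. CNTNAP1, a neuronal adhesion gene that begins 688 bases from CCR10, was at 27.0 ± 0.766 with ATRA and 23.3 ± 1.36 with DMSO (0.22, adjusted p = 0.269). EZH1, a histone methyltransferase gene 18432 bases from CCR10, was at 414 ± 12.1 against 405 ± 5.90 (0.03, adjusted p = 0.886). DDX6, an RNA helicase gene 92148 bases from CXCR5, was at 1137 ± 31.2 against 1004 ± 8.73 (0.18, adjusted p = 0.320).

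Over all 14884 genes 565 passed, 257 higher and 308 lower (313 and 239 with cyclic loess normalization). Without DMSO replicate 1, 2 or 3 the count was 207, 280 or 242, and without ATRA replicate 1, 2 or 3 it was 245, 317 or 251. Plasma cell markers matched the label of the line. Of 11 measured, 8 had a mean log2 intensity of at least 8.73, among them MZB1, CD28, IRF4 and XBP1, while CD27, POU2AF1 and FCRL5 were at a mean log2 intensity of 4.13 or less. The markers CD38 (1.95, limma adjusted p = 0.000145), SDC1 (0.84, 0.00274) and XBP1 rose, 0 fell and 8 of 11 did not pass, 27.3% called against 3.8% of all genes. That share is not read as a result, as the markers were chosen with earlier results known. The list's median was nevertheless -0.15, with 6 of 11 below 0 and the 3 ATRA values below the 3 DMSO values for 5 of 11, as for 14.8% of all genes. SLAMF7, a surface target of myeloma antibodies named with its value known, was at 1025 ± 47.5 with ATRA and 1272 ± 32.0 with DMSO (-0.31, adjusted p = 0.112). The ordinary two-sample test called 3 higher and 1 lower, and the trended and robust eBayes fit 4 higher and 3 lower. Of the 42 markers of other cell types 0 passed in limma's test or the ordinary one, and 5 had an unadjusted p under 0.05. Among all 14884 genes 2668 had such a p. The summed intensity of the 9 mature B cell markers was 173 to 182 with DMSO and 145 to 159 with ATRA, and that of the 11 myeloid markers 802 to 824 and 635 to 727. Each sum's drop lay in 1 bright gene, since without FCRLA the B cell sum was 92.5 to 109 with DMSO and 101 to 109 with ATRA, and without CD68 the myeloid sum was 91.7 to 110.4 and 99.5 to 121. The medians of both lists were 0.02 and 0.03, with 5 of 9 and 6 of 11 genes above 0. The sums of T and NK cell markers (805 to 847 and 727 to 868) and of stromal, endothelial and epithelial markers (222 to 312 and 215 to 247) overlapped. The part of FCRLA's and CD68's shifts in the receptors' values was not tested.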

How the data were processed

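Total RNA of 6 MM.1S samples was put on 1-colour arrays, and groups and replicate numbers were read from the labels. The authors deposited linear intensities of 53617 probe sets for each array. RMA and limma appear in the submitters' processing notes without a role, and background correction, summarisation and normalization were left as the authors made them. Any compression of dim values by those steps remains in the folds. Values were turned to log2 with no pseudocount, since none was at or below 0. A genome build for the array design is not given in the sources used here.

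Names came from the annotation of the platform. Of 53617 probe sets, 16098 (30.0%) had 1 symbol and 37519 are unnamed here, and all 16098 were matched by Entrez ID to RefSeq genes of GRCh38.p14, with 0 symbols changed. Each of 14884 symbols was tested with its brightest probe set. CXCR4, CCR10 and CXCR5 have 1 probe set each, and no other probe set has the same values.

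The test was limma 3.58.1 (R 4.3.3, functions lmFit and eBayes, two-sided, Benjamini-Hochberg over all 14884 genes, threshold 0.05). The step was tested on simulated data drawn independently for each array, which cannot show how it behaves if replicates share a culture. SDs are over a group's 3 arrays, SEs are limma's and folds are ratios of geometric means. The number of arrays limits the precision.

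The members, lists and markers were chosen with earlier results of these data known. Named genes are, for each list, up to 4 that passed with the largest difference or, with none, the 2 with the largest difference, plus the receptors' ligands and a few fixed receptors, and the 3 protein-coding genes nearest in values to each receptor. Of marker lists with none passing, these were FCRLA (-0.63) and BCL6 for B cells, CD8A (-0.31) and ZAP70 (0.19) for T and NK cells, S100A9 (0.43) and CD68 (-0.31) for myeloid cells, and EPCAM (-0.44) and VWF (-0.25) for the last list. Alternatives were a block for the replicate number, each array left out in turn, filters on dim genes, other normalizations, other variance models, the mean of probe sets, treat and an ordinary two-sample test. Protein-coding genes alone were added after seeing the data.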

Additional observations from a re-analysis of the deposited data

How the results depend on the processing

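Under the 3 other normalizations the log2 differences of the receptors were 1.72 to 1.80 for CXCR4, 1.07 to 1.12 for CCR10 and 0.59 to 0.63 for CXCR5. With 1 array left out they lay between 1.65 and 1.81, 0.99 and 1.21, and 0.53 and 0.66. Their sign could not turn there, since the groups did not overlap, so only the sizes are informative. The replicate block, the filters on dim genes and the mean of probe sets cannot move these values, and other probe sets could not be tried, as each gene has 1. Samples share only a number. Deviations of same-numbered arrays correlated at 0.009 to 0.017 and of others at -0.014 to -0.003, all close to 0. Each array correlated best with its own number, but these values depend on each other. Whether equal numbers mark shared cultures therefore stays unknown. The replicate block brought the called genes from 565 to 200, and the list counts to 0 for other receptors, egress, signalling and regulators and 1 for adhesion. Without the dimmer 50% of genes 1143 of those left were called, with 3 egress, 7 signalling, 5 regulator, 1 B cell and 1 myeloid gene. With eBayes with trend and robust 1327 of all 14884 genes were called. Among them were 7 adhesion, 3 egress, 8 signalling, 9 regulator, 7 plasma cell, 1 B cell and 1 myeloid gene. In both fits the count over all genes rose from 565 as well, so the larger list counts are not read as results about the lists. With treat at 1.2-fold there were 169, with 0 other receptors, adhesion, egress and regulator genes. The ordinary two-sample test left 0 other receptors, 2 ligands, 0 adhesion and 0 egress genes, and a common median 0 egress genes. With 1 array left out, 207 to 317 genes were called, 2 to 3 ligands, 2 plasma cell markers in each fit, 0 to 1 genes for other receptors, adhesion, egress and signalling, and 0 for regulators and the other marker lists. The fits with fewer arrays have less power, and the cause of the other shifts was not tested. Protein-coding genes alone gave 655 calls, and the number of genes tested there is not given. A mean log2 intensity under 5 with DMSO, the range of most markers of other cell types, limits CCR10 and CXCR5. Dim signal also limits most other receptors and ligands.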
